A study of Arabidopsis thaliana with 12 samples.

Results

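The genes described here are those that were lower in the Arabidopsis thaliana mutant toc132 than in the wild type (WT) in each of 2 sets of samples, numbered 3 and 4 and numbered 5 and 6. The labels number the samples but name no sets, and the sets were recognised from the data. A gene was taken where the mean log2 intensity of toc132 minus that of WT was at most -1 in both sets, which is an intensity of 0.5-fold of WT or less. The probe had to name a single gene and to hold at least 4 values above 0 in each group. The rule found 44 genes among the 634 probes with a single gene that were tested, of 3190 tested probes and 3439 probes in all, and left out 1 further probe, of SRX. The members were thus chosen by their measured differences in numbers 3 to 6, and those differences are descriptions without a test. The difference between the groups in samples numbered 1 and 2 took no part in the choice, and it is the one tested below. Their values did enter the normalisation and counted towards the 4 values per group. In numbers 3 to 6 alone, 41 of the 44 genes had 4 values in both groups, and the others reached 4 only with samples 1 or 2. The spread used in that test comes from all samples, those numbered 3 to 6 included, so the test is not wholly independent of the choice.

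Total RNA of 6 WT samples and 6 toc132 samples had been measured on an expression array. Both groups were of ecotype Columbia 0, and each was numbered 1 to 6. The sources used here give no organ, age, growth condition or toc132 allele, so no tissue could be checked against markers. Nor is it stated whether the samples are separate plants or repeats of the same material, and p-values here reflect the spread between samples alone, which can be technical.

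Most plastid proteins are encoded in the nucleus and made in the cytosol as preproteins with a transit peptide. Receptors of the Toc159 family, among them TOC132, bind these preproteins on the plastid surface and pass them to a channel in the outer envelope, and the labels describe toc132 as impaired in this import step. Plastids send signals to the nucleus, and transcript levels of nuclear genes for plastid and other proteins are known to respond to the state of the organelle. No probe with a single gene carried TOC132, so the mutated gene could not check the labels.

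Summed deposited intensities ran from 3536 to 3857 in arbitrary units per sample, with between 174 and 277 probes at 0. The median deposited intensity was 0.361 and 0.354 in WT samples 1 and 2, 0.559 and 0.564 in WT samples 3 and 4, and 0.40 and 0.406 in WT samples 5 and 6, so WT samples 3 and 4 were the highest. In toc132 samples 1 and 2 it was higher, at 0.609 and 0.616, against 0.379 to 0.429 in toc132 samples 3 to 6. Quantile normalisation, which gives every sample the same distribution, was applied before all differences below, which are toc132 minus WT on the log2 scale. The median difference over all probes in numbers 1 and 2 was 0.70 in the values as deposited and 0.07 after it.

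The rule fixes that the 44 genes were higher in WT than in toc132 in numbers 3 to 6, so the levels there are a description. In WT samples 3 to 6 the median normalised log2 intensity over the genes was -1.02, -0.95, -0.89 and -1.03. In toc132 samples 3 to 6 it was -2.47, -2.23, -2.43 and -2.59. The difference in samples numbered 1 and 2 had no part in the choice, and there the median was -2.37 and -2.47 in WT and -2.16 and -2.36 in toc132. On this measure WT samples 1 and 2 lay within the range of the toc132 samples. The median of all tested probes with a single gene stayed between -1.15 and -1.02 in the 12 samples. Of the 43 genes with a value in WT samples 1 or 2, 40 had a lower mean there than in WT samples 3 and 4 and in WT samples 5 and 6, as had 40.5% of all probes. The rule favours genes that were high in WT samples 3 to 6, so nothing is read from this count. In total RNA of bulk samples, fewer cells that express a gene and less RNA per cell cannot be told apart.

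**Figure D1:**
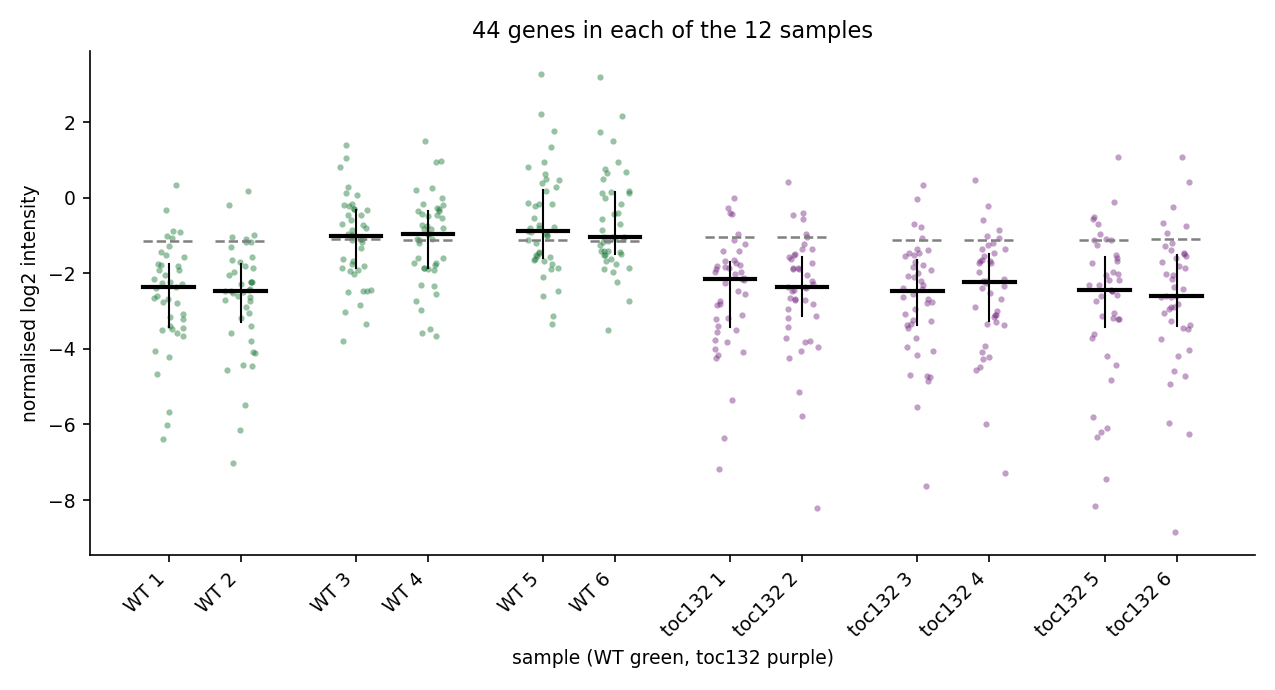
Normalised log2 intensity (y axis) of the 44 genes in each of the 12 samples (x axis, WT in green, toc132 in purple). Each point is a gene, the thick black line the median, the thin vertical line the range from the lower to the upper quartile, and the dashed grey line the median of all tested probes with a single gene. The genes lie highest in WT samples 3 to 6, with medians between -1.03 and -0.89, and between -2.59 and -2.16 in the other 8 samples.

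In numbers 1 and 2, whose difference did not choose the genes, the lower level in toc132 was not seen across the list. Of 43 genes with values in both groups for numbers 1 and 2, 16 were lower and 27 higher in toc132, so 37.2% were lower. Among all 3174 probes with such values, 44.2% were lower. The count moved with the scaling: with an offset of 0.05 added before log2, 21 of 44 genes (47.7%) were lower, against 47.5% of all probes, and in the values as deposited 2 of 43 (4.65%), against 12.1%. The median difference of the genes was 0.31, and that of all tested probes was 0.07. Without WT sample 1 the median of the genes was 0.157, and without WT sample 2 it was 0.144. The lower and upper quartiles of the genes were -0.30 and 0.61. A single gene was lower by 1 or more, where 3.78% of all probes were, and 4 genes were higher by 1 or more, where 5.64% of all probes were. Both toc132 samples lay below both WT samples for 7 of 42 genes with all 4 values, against 29.9% of all probes. Both lay above for 18 of 42, against 38.6% of all probes.

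With limma and Benjamini-Hochberg adjustment over all 3174 probes, 580 probes (18.3%) passed an adjusted p of 0.05 in numbers 1 and 2, 288 lower and 292 higher in toc132. Of the 43 genes tested, 4 passed, 1 lower (9.07% of all probes were called lower) and 3 higher (9.2% of all probes). The split of all calls followed the scaling: with median centring in place of quantile normalisation it was 524 lower and 216 higher, and in the values as deposited 139 lower and 1705 higher. Leaving out toc132 sample 1 or 2 leaves 1 toc132 sample in numbers 1 and 2, and the median of the genes was then 0.248 and 0.207. None of the calls among the genes then held by the same limma test. Calls over all probes fell as well, to 210 of 3112 (6.75%) and 204 of 3108 (6.56%). With all samples 10 of 43 genes had an unadjusted p under 0.05, against 33% of all probes. The spread in this test is that between the 2 samples of a set, pooled over all sets, so it includes the samples that chose the genes. With only the 4 samples numbered 1 and 2 in the limma fit, 8 of 43 genes (18.6%) passed, against 18.1% of all probes. An unadjusted p under 0.05 was then found for 17 of the 43 genes and for 1245 of 3159 probes.

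**Figure D2:**
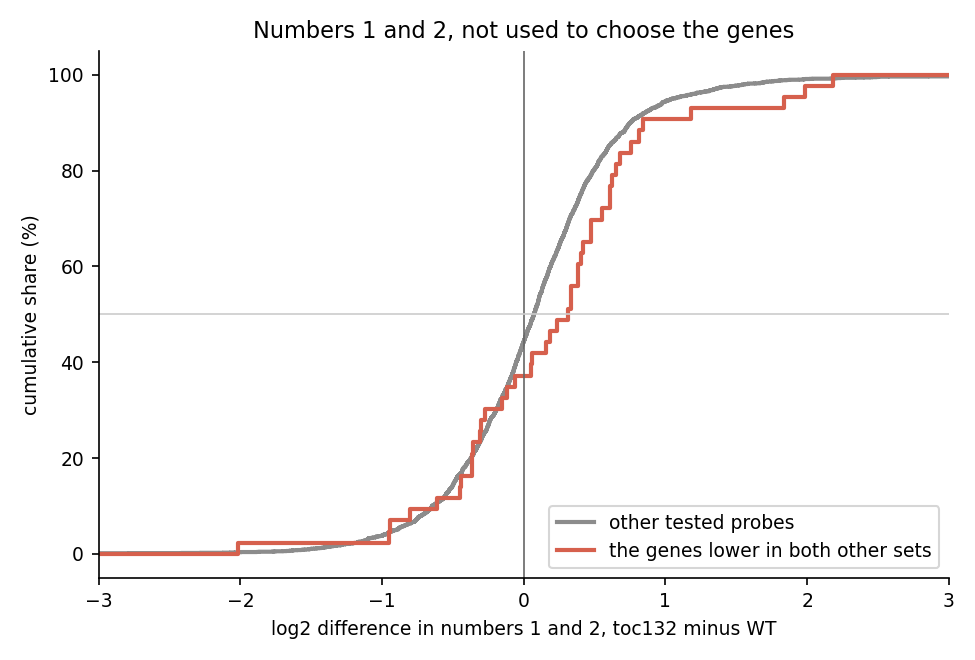
Cumulative share (y axis, in percent) of the log2 difference toc132 minus WT in the samples numbered 1 and 2 (x axis), for the 43 genes with a value (red) and the other tested probes (grey). Values beyond -3 and 3 are not drawn. The red curve crosses the vertical line at 0 at 37.2% and reaches its median at 0.31, to the right of the grey curve over much of the range.

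The gene lower in all 3 sets by 1 or more was AT3G61680, which encodes a plastid lipase. Its normalised log2 intensity in WT samples 1 to 6 was -4.06, -3.04, -3.79, -3.66, -1.68 and -1.68. In toc132 it was -5.36, -5.77, -5.53, -4.21, -2.57 and -2.90. The toc132 sample lay below the WT sample of its number in all 6 cases, while samples 5 and 6 were the highest of both groups, so the groups overlapped. The difference in numbers 1 and 2 was -2.02 ± 0.45 (SE, n = 2 per group, limma adjusted p = 0.0207). It passed in 15 of 20 alternatives, with adjusted p between 0.00543 and 0.127, and not without WT sample 2 (0.0924), toc132 sample 1 (0.0757) or toc132 sample 2 (0.114). Nor did it pass with only the 4 samples numbered 1 and 2 (0.0531), or in the values as deposited (0.127), where the difference was -0.92. In numbers 3 and 4 and in 5 and 6 it was -1.14 and -1.05, close to the threshold of the rule. The probe was dim, with a mean of -3.69 over the 12 samples.

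The 3 genes that passed in numbers 1 and 2 with higher intensity in toc132 were AT2G48090, AT1G70350 and AT4G31060. For AT2G48090 the difference was 0.61 ± 0.10 (SE, n = 2 per group, limma adjusted p = 0.00732), against -1.48 in numbers 3 and 4 and -2.07 in 5 and 6. It passed in 19 of 21 alternatives (0.000264 to 0.0519), and not without toc132 sample 1 or 2. AT1G70350 stood at -4.66 and -6.14 in WT samples 1 and 2, and at -2.84, -2.54, -0.98 and -1.02 in WT samples 3 to 6. Its 6 toc132 samples lay close together, at -3.40, -3.72, -3.71, -3.92, -3.18 and -3.36. They fell between WT samples 1 and 2 and WT samples 3 to 6. The difference in numbers 1 and 2 was 1.84 ± 0.41 (SE, limma adjusted p = 0.0197), and in the other sets -1.12 and -2.27. It passed in 16 of 20 alternatives (0.00176 to 0.132), and not without toc132 sample 1 or 2, with only the 4 samples numbered 1 and 2 (0.103), or with the offset of 0.05 (0.132), where the difference was 0.33. Without WT sample 2 the difference was 1.09. AT4G31060, a transcription factor of the AP2/ERF family, had 0.84 ± 0.23 (SE, limma adjusted p = 0.038) in numbers 1 and 2, -1.61 in 3 and 4, and -1.32 in 5 and 6. It passed in 12 of 21 alternatives (0.00148 to 0.198). It did not pass with the replicate number as a block (limma adjusted p = 0.098), nor without any single sample numbered 1 or 2, nor without toc132 sample 5 (0.053) or 6 (0.0518), nor with cyclic loess (0.0691) or the offset (0.0653).

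**Figure D3:**
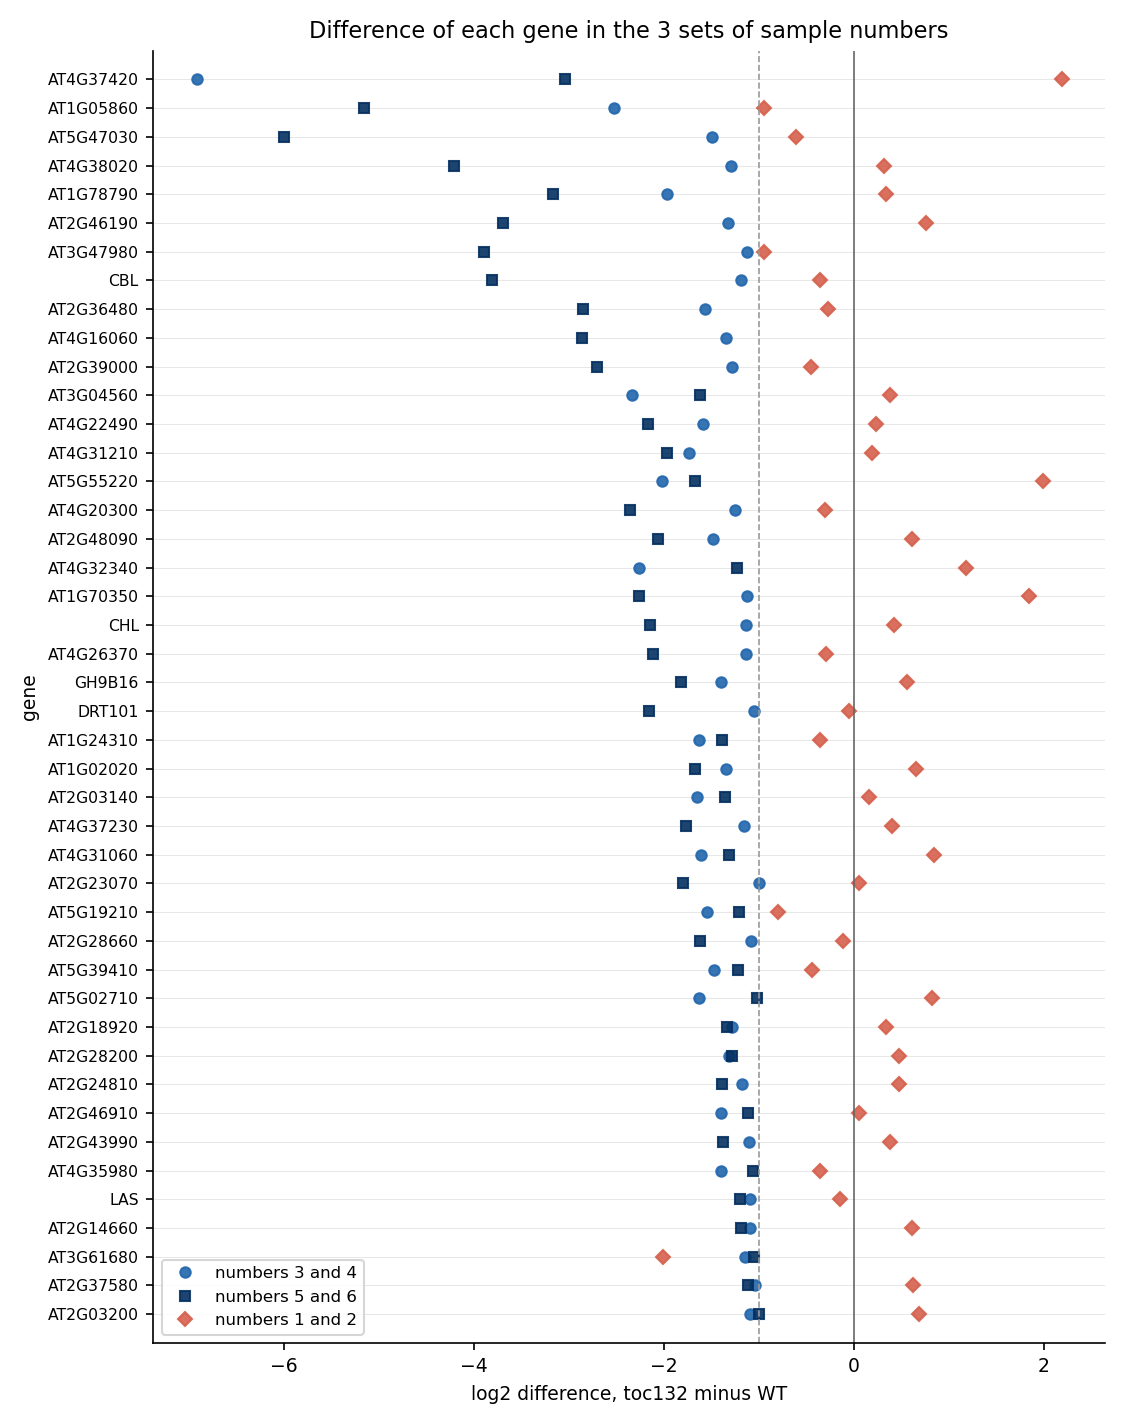
Log2 difference toc132 minus WT (x axis) of each of the 44 genes (y axis), from the mean of the 2 samples per group (the value above 0 alone, where the other was 0) in numbers 3 and 4 (light blue circles), 5 and 6 (dark blue squares) and 1 and 2 (red diamonds). The dashed line marks the threshold of -1 that circles and squares had to meet. AT3G61680 has its diamond at -2.02, past that line, and 27 diamonds lie to the right of 0.

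Among the genes with the largest differences in numbers 3 to 6, the 2 samples of a set were often far apart or listed at 0. AT4G37420 had the lowest mean difference, with -6.92 in numbers 3 and 4 and -3.04 in 5 and 6. In WT it was listed at 0 in sample 1, and stood at -4.44, -0.70, -0.72, -0.16 and -0.0024 in samples 2 to 6. In toc132 it stood at -2.15, -2.35 and -7.63 in samples 1 to 3, was listed at 0 in sample 4, and stood at -4.20 and -2.05 in samples 5 and 6. The difference of numbers 3 and 4 thus rests on a single toc132 value. In numbers 1 and 2 it was higher in toc132 by 2.18 ± 0.79 (SE, limma adjusted p = 0.118), with 1 WT value.

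AT1G05860 was the dimmest of the 44 genes, with a mean of -5.19. Its WT samples stood at -5.66, -7.02, -3.33, -3.59, -1.44 and -1.49. Its toc132 samples stood at -6.36, -8.21, -4.70, -7.28, -4.42 and -8.84. Its 2 toc132 samples of a set differed by up to several log2 units, and the toc132 sample was the lower one in all 6 pairs of the same number. The difference in numbers 1 and 2 was -0.94 ± 1.43 (SE), smaller than its error.

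AT5G47030 encodes a subunit of the delta and epsilon type in the F1 part of the mitochondrial ATP synthase. It stood at -3.44, -3.38, -3.02, -3.47, -2.11 and -2.23 in WT. In toc132 it stood at -4.001, -4.05, -4.74 and -8.17 in samples 1, 2, 3 and 5 and was listed at 0 in samples 4 and 6. All measured toc132 values lay below all WT values, which held for 2 of the 44 genes and 1.72% of all probes. The other was AT4G16060, listed at 0 in WT samples 1 and 2, which were left out as missing. Its deposited intensities in toc132 samples 1 and 2 were 0.0093 and 0.045, so as deposited the order there was the reverse. Numbers 3 to 6 chose the genes, so nothing is read from this count. In numbers 1 and 2 the difference of AT5G47030 was -0.61 ± 0.17 (SE, limma adjusted p = 0.0567).

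**Figure D4:**
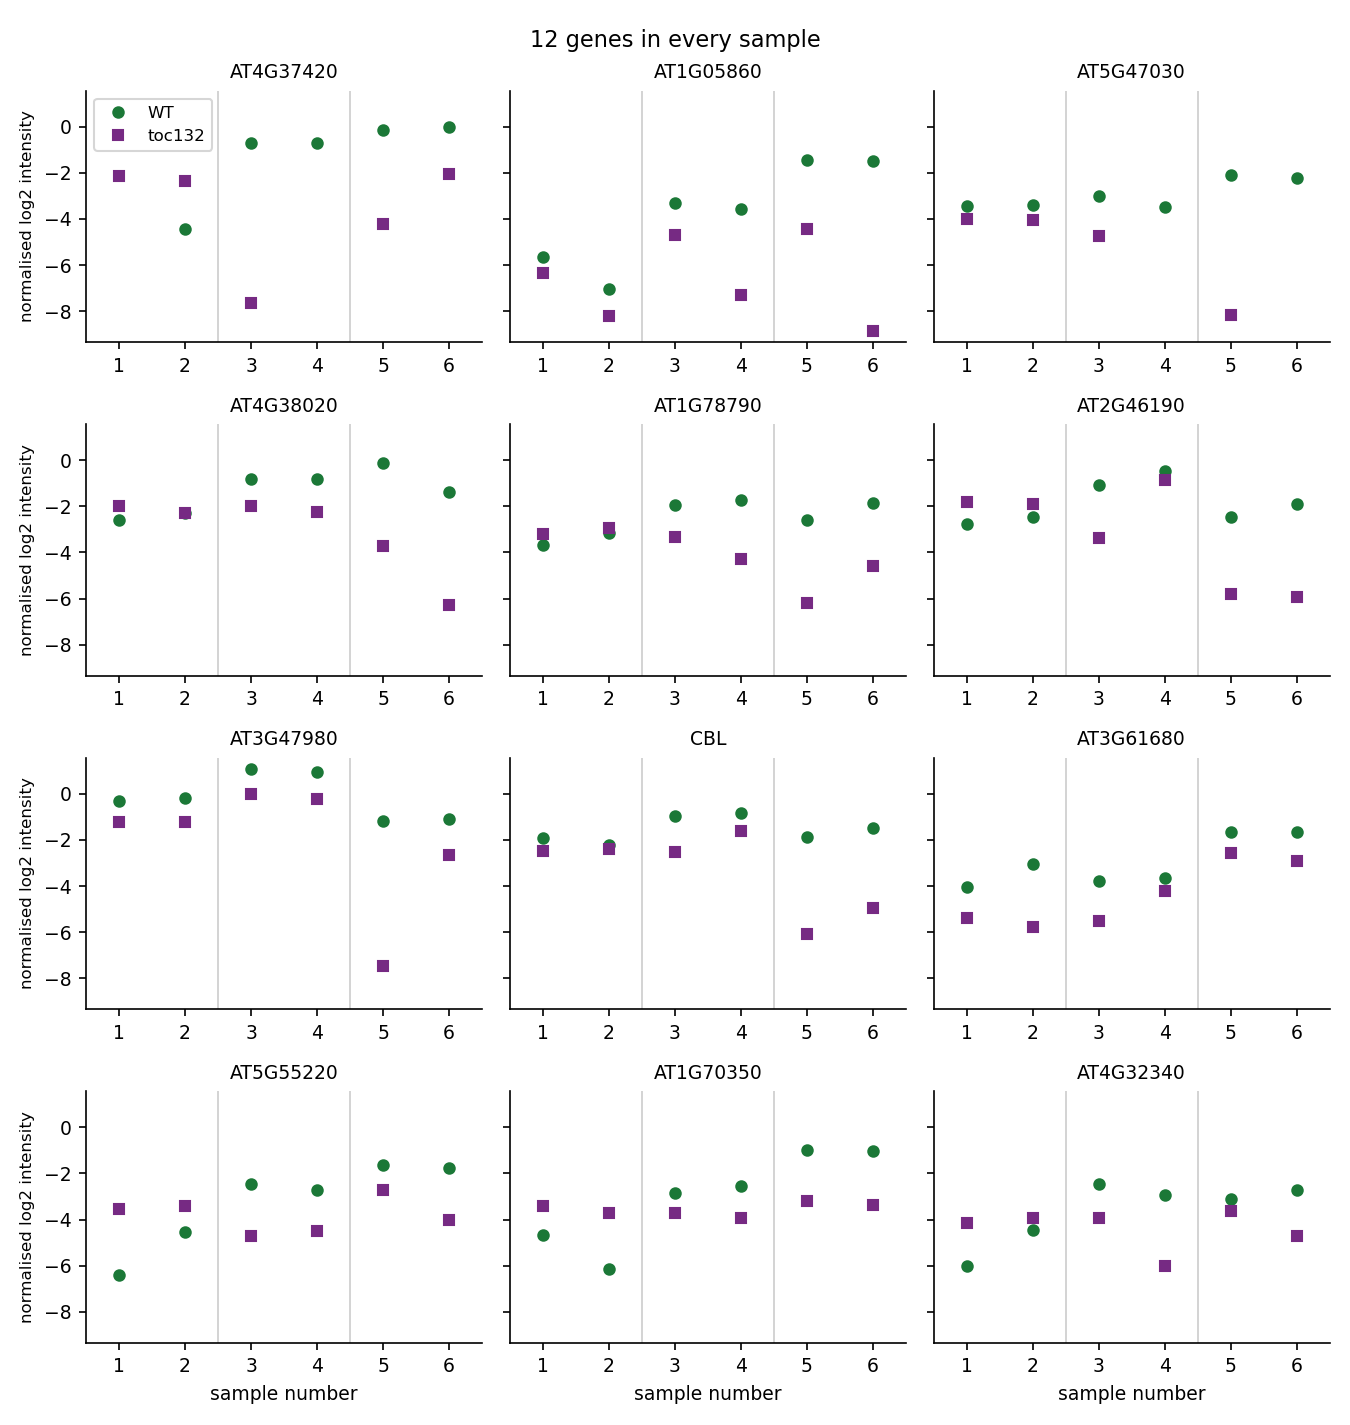
Normalised log2 intensity (y axis) by sample number (x axis) in WT (green circles) and toc132 (purple squares) for 12 genes, each point a sample, with vertical lines between the sets of numbers. Samples listed at 0 have no point. In numbers 3 to 6 the circles lie above the squares of the same number, and in numbers 1 and 2 the order differs from gene to gene, as for AT5G55220, with squares at -3.54 and -3.43 above circles at -6.39 and -4.55.

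Among the 44 genes, 27 are described here by the kind of protein they encode, in groups formed after the values were known, so their counts have no test. The 6 genes of RNA and protein handling had a median difference of -1.29 in numbers 3 and 4 and -1.96 in 5 and 6, and of -0.13 in numbers 1 and 2, where 3 were lower and 3 higher. AT5G55220 encodes a chaperone of the trigger factor type, which binds nascent chains at the ribosome in bacteria. It stood at -6.39, -4.55, -2.46, -2.72, -1.63 and -1.75 in WT and at -3.54, -3.43, -4.73, -4.49, -2.72 and -4.02 in toc132. WT samples 1 and 2 were the lowest and the third lowest of all 12. The difference in numbers 1 and 2 was 1.99 ± 0.58 (SE, limma adjusted p = 0.0516), against -2.02 and -1.68 in the other sets. It was 1.07 without WT sample 1 (limma adjusted p = 0.19) and 2.89 without WT sample 2 (0.0147). The gene passed in 6 of 20 alternatives (0.00408 to 0.347), among them the values as deposited (0.00408) and median centring (0.0239).

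AT4G38020, of the SpoU family of RNA methyltransferases, stood at -2.59, -2.28, -0.84, -0.80, -0.14 and -1.40 in WT and at -1.97, -2.29, -1.98, -2.26, -3.70 and -6.26 in toc132. Here toc132 samples 5 and 6 were low, and the other toc132 samples lay with WT samples 1 and 2. The differences were 0.31 in numbers 1 and 2, -1.29 in 3 and 4, and -4.22 in 5 and 6. AT4G26370, with a domain of the bacterial antitermination factor NusB, had -0.30, -1.14 and -2.12 in the same order. AT5G19210, a DEAD-box RNA helicase, had -0.80, -1.55 and -1.22. AT2G39000 encodes a plastid acetyltransferase of the GNAT family that acts on protein N-termini and lysines, with -0.45, -1.28 and -2.71. AT2G23070, the plastid alpha subunit of protein kinase CK2, had 0.05, -1.005 and -1.80.

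The 4 genes grouped under DNA and the nucleus had median differences of 0.07 in numbers 1 and 2, -1.69 in 3 and 4, and -2.07 in 5 and 6. AT1G78790 encodes MHF2, a histone-fold partner of the FANCM helicase that limits crossovers in meiosis. It stood at -3.66, -3.17, -1.95, -1.73, -2.59 and -1.85 in WT and at -3.21, -2.95, -3.34, -4.28, -6.20 and -4.59 in toc132. WT samples 1 and 2 lay within the toc132 range, and WT samples 3 to 6 lay above all toc132 samples. AT4G31210, a DNA topoisomerase of type IA, had differences of 0.19, -1.74 and -1.97. DRT101 is placed here by its name, DNA-damage-repair/toleration protein, and what it does was not checked. It was the brightest of the 44 genes, with a mean of 1.11, and had -0.06, -1.06 and -2.16. AT1G24310, a nuclear pore protein, had -0.36, -1.63 and -1.40.

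The 7 genes of metabolism and lipids had median differences of -0.36 in numbers 1 and 2, where 4 were lower and 3 higher, and of -1.35 and -1.67 in the other sets. CBL (AT3G57050) encodes cystathionine beta-lyase, a plastid enzyme of methionine synthesis. It stood at -1.91, -2.24, -0.97, -0.82, -1.89 and -1.51 in WT and at -2.47, -2.39, -2.54, -1.64, -6.08 and -4.93 in toc132. Each toc132 sample was below the WT sample of its number, with toc132 samples 5 and 6 far below the others, and the groups overlapped through toc132 sample 4. The difference in numbers 1 and 2 was -0.36 ± 0.40 (SE, limma adjusted p = 0.598). CHL, the chloroplastic lipocalin that protects thylakoid lipids from oxidation, had differences of 0.42, -1.14 and -2.15. AT2G46910, of the fibrillin family of plastid lipid-associated proteins, had 0.06, -1.40 and -1.12. AT1G02020, of the nitroreductase family, had 0.65, -1.35 and -1.67. AT5G39410, which resembles saccharopine dehydrogenase, had -0.44, -1.48 and -1.22. AT5G47030 and AT3G61680, described above, complete this group.

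The 3 genes of cell wall and secreted proteins each had a higher mean in toc132 in numbers 1 and 2. GH9B16, an endoglucanase of glycosyl hydrolase family 9, had 0.55 in numbers 1 and 2, -1.40 in 3 and 4, and -1.82 in 5 and 6. AT2G24810, of the thaumatin family, had 0.47, -1.18 and -1.39, and AT4G22490, of the lipid-transfer protein type, had 0.23, -1.59 and -2.17. For number 2 alone AT4G22490 was level (0.0048), and its difference was -0.19 without WT sample 1 and -0.031 with the offset of 0.05. By limma, 0 of these 3 passed in numbers 1 and 2, where 18.3% of all probes did.

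Of the 3 transcription factors, AT4G31060 is given above. LAS, the GRAS protein needed to form axillary meristems, had -0.15, -1.10 and -1.20 and was lower in all 6 pairs of the same number. AT2G28200, of the C2H2 zinc finger family, had 0.48, -1.32 and -1.29.

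The 4 genes of proteolysis and membrane proteins held AT3G47980, an integral membrane protein of the HPP family. It stood at -0.33, -0.20, 1.06, 0.95, -1.20 and -1.10 in WT and at -1.21, -1.22, -0.02, -0.22, -7.44 and -2.64 in toc132. It was lower for each of the 6 numbers, and toc132 sample 5 lay far below the rest. The difference in numbers 1 and 2 was -0.95 ± 1.22 (SE). This SE pools the gaps between the samples of each of the 3 sets, so it holds the gap between toc132 samples 5 and 6. AT2G03140, of the CAAX protease family, had 0.16, -1.65 and -1.36, and AT2G03200, an aspartyl protease, had 0.68, -1.09 and -1.003. AT2G37580, of the RING finger family, had 0.62, -1.04 and -1.12.

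The other 17 genes are named without a role, and AT4G37420, AT1G05860, AT2G48090 and AT1G70350 among them are given above. AT2G46190 stood at -2.77, -2.45, -1.09, -0.47, -2.47 and -1.89 in WT and at -1.82, -1.89, -3.36, -0.85, -5.81 and -5.95 in toc132. Its toc132 samples 3 and 4 lay on either side of most WT samples, so the difference of -1.32 in numbers 3 and 4 came mainly from sample 3. AT4G32340 stood at -6.02, -4.45, -2.46, -2.96, -3.13 and -2.72 in WT and at -4.17, -3.95, -3.95, -5.99, -3.61 and -4.71 in toc132. Its WT samples 1 and 2 lay below most toc132 samples, with a difference of 1.18 ± 0.73 (SE, limma adjusted p = 0.312) in numbers 1 and 2.

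The differences of the remaining genes in numbers 1 and 2, 3 and 4, and 5 and 6 follow in that order. Those lower in toc132 in all 3 sets were AT2G36480 with -0.27, -1.57 and -2.85, AT4G20300 with -0.31, -1.26 and -2.36, AT2G28660 with -0.12, -1.09 and -1.62, and AT4G35980 with -0.36, -1.41 and -1.06. The first 3 were also lower for each of the 6 numbers. Higher in toc132 for both number 1 and number 2 was AT3G04560 with 0.38, -2.34 and -1.62. So were AT2G18920 with 0.34, -1.29 and -1.34, AT2G43990 with 0.38, -1.11 and -1.38, and AT2G14660 with 0.61, -1.10 and -1.19. AT4G37230 had 0.40, -1.16 and -1.77, but was lower for number 1 (-0.86) and higher for number 2 (1.66), and its difference was -0.74 without WT sample 2. AT5G02710 had 0.82, -1.63 and -1.02, with 1.67 for number 1 and -0.04 for number 2. Numbers 1 and 2 had the same direction in 33 of the 42 genes with all 4 values. AT4G16060 had no WT value in numbers 1 and 2 and stood at -1.35 and -2.87 in the other sets. It was not tested there, and the other 10 of these 11 genes did not pass the limma test.

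Over the whole list, the median difference was -1.34 in numbers 3 and 4 and -1.72 in numbers 5 and 6, and 29 of the 44 genes were lower by more in numbers 5 and 6. A difference of -2 or less was reached by 5 genes in numbers 3 and 4, by 18 in numbers 5 and 6, and by 2 in both, AT4G37420 and AT1G05860. For 31 of the 44 genes, all WT samples numbered 3 to 6 lay above all toc132 samples numbered 3 to 6, as far as they had values, as did 18% of all probes. In all 6 pairs of the same number, toc132 was the lower sample for 10 of the 40 genes with all 12 values, against 12.6% of such probes. The rule used numbers 3 to 6, so nothing is read from either count. The rule itself was met by 7.12% of probes with a single gene and 7.45% of all probes. At the threshold, AT2G03200 (-1.003 in numbers 5 and 6) and AT2G23070 (-1.005 in 3 and 4) lay just inside. AT4G01810 (-0.998 in numbers 5 and 6) and AGL54 (-0.995 in 3 and 4) lay just outside.

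Some further features of the genes are descriptions, and the rule, which favours low levels in toc132, may bear on them. In numbers 1 and 2 the median of the genes' mean log2 intensity was -2.30, against -1.12 for all tested probes with a single gene. Above -1.12 lay 6 genes. The median was -2.39 for probes with several genes that met the same threshold, and -2.05 for those with no named gene, so the low level was not particular to these genes. By their mean in numbers 1 and 2, 31 of the 44 were in the lowest 25% of tested probes. WT samples 1 and 2 differed by more than 1 log2 unit for 10 of 42 genes, against 7.03% of all probes, and toc132 samples 1 and 2 for 2 of 44, against 1.61%. By locus, 15 genes (34.1%) lie on chromosome 2, as do 19.0% of the tested probes with a single gene. Another 12 lie on chromosome 4, for which the share of tested probes was not computed, so nothing is read from that count. The closest in gene order were AT2G03140 and AT2G03200, 6 protein-coding genes apart, and CHL and AT3G47980, 10 apart.

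Most probes that met the same threshold but name several genes or none were not lower in numbers 1 and 2, as held for all tested probes, of which 44.2% were lower. Of 68 probes with several genes, 22 (32.4%) were lower there, with a median of 0.17, and of 115 with no named gene, 45 (39.1%) were lower, with a median of 0.24. The 65 probes with a single gene that were higher by at least 1 in both sets had a median of 0.12 in numbers 1 and 2. There 38 of them were higher and 27 (41.5%) lower, close to the share of all probes. They were at a median log2 level of -0.25 in numbers 1 and 2, where the 44 genes were at -2.30.

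Of 5 lists of related genes, DNA topoisomerases and gyrases had 1 of 10 genes on a tested probe of its own, AT4G31210, and 0 passed in limma in numbers 1 and 2. Peroxiredoxins with sulfiredoxin and its partners had 3 of 10, none of them among the 44 genes: NTRC (difference -0.09 in numbers 1 and 2), AT3G52960 (0.52) and SRX (0.33), with limma adjusted p of 0.796, 0.271 and 0.163. The lists of plastid protein import (25 genes), organelle RNA polymerases and sigma factors (9) and mitochondrial protein import (14) had 0 genes on such a probe.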

How the data were processed

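Total RNA of 6 WT and 6 toc132 samples had been measured by array. The deposited values are linear intensities between 0 and 100. How the authors corrected background and scaled them, and on which array, is not given in the sources used here, and what an exact 0 means is unknown. Groups and numbers came from the titles. Of 3439 probes, 692 name 1 gene, 870 several and 1877 none in the platform annotation, and 690 of the 692 matched the RefSeq table of TAIR10.1 by gene ID, which served for names, chromosomes and gene order. No table of sequences was used here.

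Zeros were treated as missing before log2 and quantile normalisation. Probes needed 4 values per group. limma 3.58.1 in R 4.3.3 fitted the toc132 difference separately in numbers 1 and 2, 3 and 4, and 5 and 6 with a shared spread (lmFit, eBayes, 2-sided), and the difference in numbers 1 and 2 was tested with Benjamini-Hochberg adjustment at 0.05. The fit over all 12 samples without sets, which contains the values that chose the genes, called 0 of 3190 probes in limma (0%), with 807 (25.3%) at an unadjusted p under 0.05. The fit was tested on simulated data.

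Same-numbered WT and toc132 samples deviated together from their group means, with correlations of 0.15 to 0.44 over 2907 probes, all above the limit of 0.1. Sets that deviate as a whole would give such correlations too, and samples of different numbers were not compared. Whether the numbers pair the samples was thus not tested. The fit reported has a level for each set and no block by number, and the block was run as an alternative.

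The members, lists and tests were chosen with earlier results of these data known. Of the members, the text gives every sample for 12: the 8 with the lowest mean of both sets, the gene lower by 1 or more in numbers 1 and 2, and then those most raised there, from 0.5 upwards. No member had a second probe of its own, and 5 are named also on probes with several genes, which were not used. Alternatives covered scaling, an offset, filters, the variance model, the samples in the fit, the replicate block and each sample left out. Python 3.11.15 with matplotlib 3.10.9 drew the figures.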

Additional observations from a re-analysis of the deposited data

Results flagged for a closer look

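Among the 12 genes shown in every sample and the median over the 44 genes, 26 groups of samples were checked for a value far from the others of its group, and chance alone flags about 1 in 20. The check found 2. AT4G37420 stood at -4.44 (log2) in WT sample 2, where the nearest of the other WT values was -0.72 and WT sample 1 was listed at 0. AT3G47980 stood at -7.44 in toc132 sample 5, where the nearest was -2.64.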

How the results depend on the processing

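All alternatives were planned, and values are for numbers 1 and 2 unless named. The sets were recognised from the data, and whether the 2 samples of a set hold any spread between plants is not stated. Signal over background was not given, so what it limits was not assessed. In the values as deposited, where the median of all probes moved to 0.70, 1844 of 3174 probes (58.1%) were called (139 lower), 27 of the 43 genes tested (62.8%) were called, 2 were lower, and their median was 1.21, still above that of all probes. It was 0.50 with median centring (524 probes called lower) and 0.0080 with an offset of 0.05 before log2, where the median of all probes was 0 and 21 of 44 genes were lower. Without the dimmest 25% of probes, 20 genes were left, of which 7 were lower. With only the 4 samples numbered 1 and 2, 8 of 43 genes (18.6%) were called, against 18.1% of all probes. With the replicate block, 545 of 3165 probes (17.2%) and 3 of the 43 genes tested (6.98%) were called. The block ended the call of AT4G31060 alone among the 4 called. Leaving out each sample gave 204 to 659 called probes, 119 to 318 called lower, 0 to 8 called genes, 14 to 18 lower genes, medians of 0.14 to 0.34 and 39 to 44 genes under the rule. The fewest probes came without toc132 sample 1 (210) or 2 (204), against 368 and 378 without WT sample 1 or 2, and the lowest medians without WT sample 1 or 2. The 8 called genes, of 39 under the rule then, came without toc132 sample 5, where 18.8% of all probes were called. The rule gave 72 genes in the values as deposited (39 of the 44 among them), 23 with the offset (21 of the 44), 70 at a threshold of -0.75 and 8 at -1.5. Fewer or more genes follow from the last 2 by construction; the other causes were not tested.

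Of 872 values of single genes, 37 changed direction, in 20 genes. In the values as deposited these were AT5G39410 (0.71), AT5G19210 (0.22), CBL (0.63), AT1G24310 (0.72), AT5G47030 (0.52), AT4G35980 (0.63), DRT101 (0.37), AT4G26370 (0.68), AT2G36480 (0.51), AT4G20300 (0.57), AT2G28660 (0.73), LAS (0.60), AT2G39000 (0.66) and AT1G05860 (0.28), where the shift of all probes was 0.70. With median centring they were AT1G24310 (0.010) and AT2G28660 (0.021). With cyclic loess they were AT2G23070 (-0.019), DRT101 (0.32), AT2G36480 (0.027), AT2G28660 (0.0081) and LAS (0.028). With the offset they were AT2G23070 (-0.26), AT4G31210 (-0.12), AT4G22490 (-0.031), AT4G32340 (-0.053) and AT4G37230 (-0.37). Leaving out each sample turned AT5G39410 (-0.95 to 0.063), AT2G23070 (-0.89 to 0.98), AT2G28200 (-0.025 to 0.99), AT4G31210 (-0.022 to 0.40), AT4G35980 (-0.77 to 0.040), DRT101 (-0.26 to 0.14), AT4G26370 (-0.70 to 0.10), AT4G22490 (-0.19 to 0.66) and AT4G37230 (-0.74 to 1.55). The causes were not tested.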
